A study of Homo sapiens with 6 samples.

Results

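Transcripts of 10 NF-kappa-B genes were compared between 2 lines of AsPC-1, an established human pancreatic cancer cell line. The genes were picked by symbol from the 58735 genes of the count table, with earlier results of these data known. They comprised the subunits NFKB1, NFKB2, RELA and RELB, the inhibitors NFKBIA, NFKBIE and NFKBIZ, and the ubiquitin enzyme genes TNFAIP3, BIRC2 and BIRC3. All of them passed the filter on low counts. Control libraries, titled NC (n = 3), are called Vector here, after the empty lentivirus that the study describes as the control of its overexpression lines. Cells of the OE-MMP28 group (n = 3), titled OE, had received a lentivirus with the cDNA of MMP28, a secreted matrix metalloproteinase. The genotype label is wild type for the Vector group and MMP28 overexpression for the OE-MMP28 group. That the control cells carried an empty virus is thus inferred from the study's methods, as neither their title nor this label names one. Per the study's methods, the MMP28 virus also carried GFP and puromycin resistance, and infected cells were kept under puromycin to obtain stable lines. On that reading each condition was 1 selected line. Nothing in the labels states that the replicates were separate cultures, so p-values measure the spread between these libraries, which may be technical. An effect of MMP28 and any other difference between the lines, including infection and selection, cannot be told apart.

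NF-kappa-B is a family of transcription factors that act as pairs of subunits. In the canonical pathway, an inhibitor of the I-kappa-B type holds RELA with the product of NFKB1 in the cytoplasm until a kinase complex marks the inhibitor for destruction. In the non-canonical pathway, the kinase encoded by MAP3K14 leads to cutting of the NFKB2 precursor, which then acts with RELB. NFKBIA, TNFAIP3, BIRC3, NFKB2 and RELB are textbook targets of the pathway as well as parts of it, and the pathway is known in pancreatic cancer for constant activity in tumor cells.

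The DNA before the start of a gene is shown for the genes on which the results turn. Sequences were taken from RefSeq on build GRCh38.p14, which matched 8 of the 10 genes (all but RELB and NFKBIE). The 250 bases before the start were searched on both strands for the 10-letter kappa-B consensus, the DNA motif bound by the family. It was found before 5 of the 8 genes, against 5.21% of all 35116 promoters and 6.09% of 14900 promoters of tested genes. The genes were listed as parts or targets of the pathway, so this share depends on that choice and is description only. Median GC content was 58.8% for the 8 genes and 58% for all promoters. NFKB2 and NFKBIA are given in full because they were the genes that passed the test. The first run is the plus strand of chr10:102393860-102394109 and the second the minus strand of chr14:35404750-35404999, each ending at the base before the start. Capitals mark a match to the consensus, in either direction.
NFKB2: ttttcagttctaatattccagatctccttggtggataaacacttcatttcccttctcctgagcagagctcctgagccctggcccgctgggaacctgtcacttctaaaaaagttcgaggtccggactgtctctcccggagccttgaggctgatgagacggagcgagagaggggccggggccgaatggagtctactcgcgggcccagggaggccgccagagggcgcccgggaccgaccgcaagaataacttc
NFKBIA: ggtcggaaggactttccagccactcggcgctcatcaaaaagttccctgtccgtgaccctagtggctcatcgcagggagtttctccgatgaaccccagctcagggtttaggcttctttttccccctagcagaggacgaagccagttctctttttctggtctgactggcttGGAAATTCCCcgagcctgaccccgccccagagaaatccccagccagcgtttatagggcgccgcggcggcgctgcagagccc

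The window of NFKB2 held no match, and neither did those of RELA and BIRC2. The NFKBIA match lay 81 to 72 bases before the start and read GGGAATTTCC on the strand opposite to the gene. Matches of the other genes are shown with 10 or fewer flanking bases on each side, so that the letters can be compared.
NFKB1, chr4:102501300-102501329, plus strand: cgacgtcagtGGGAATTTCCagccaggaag
NFKBIZ, chr3:101827757-101827786, plus strand: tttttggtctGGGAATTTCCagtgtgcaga
TNFAIP3, chr6:137867188-137867217, plus strand: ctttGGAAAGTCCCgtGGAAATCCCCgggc
BIRC3, first match, chr11:102317275-102317304, plus strand: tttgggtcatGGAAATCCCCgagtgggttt
BIRC3, second match, chr11:102317339-102317368, plus strand: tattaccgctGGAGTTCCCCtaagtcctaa
The same letters, GGGAATTTCC, were thus found before NFKB1, NFKBIZ and NFKBIA. TNFAIP3 and BIRC3 each held 2 matches, all on the opposite strand. Positions are counted from the RefSeq start, which for NFKB1, TNFAIP3, BIRC2 and BIRC3 lies downstream of the start in the annotation used for the counts. For TNFAIP3 it lies 71 bases downstream, so both of its matches are within the counted gene. For RELA the RefSeq start lies 763 bases upstream of the annotated start, so its window is not next to the counted gene. A match is a description of letters, and binding was not measured.

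MMP28 was measured first as a check of the labels. Its level was 5.17, 9.11 and 8.43 FPKM (fragments per kilobase of a gene, divided by library size) in Vector replicates 1, 2 and 3, and 13.1, 13.9 and 15.1 FPKM in OE-MMP28 replicates 1, 2 and 3. The groups did not overlap, and the quasi-likelihood test of edgeR gave a log2 fold change of 0.90 (SE 0.19) at an adjusted p of 0.00226. An exact two-sided permutation test of the FPKM values gave p = 0.1, the smallest that 3 against 3 libraries allow. Totals ran from 13633249 to 16691458 counts per library, so that 3 counts equalled 0.180 to 0.220 CPM, a count scaled by depth. Mitochondrial genes took 11.9 to 14.8% of counts in the Vector group and 8.80 to 11.9% in the OE-MMP28 group. Of 8 epithelial markers, 6 exceeded 1 FPKM in every library, including KRT8, KRT18, KRT19 and EPCAM, and their summed level was 2592 to 3540 FPKM in the Vector group and 3580 to 4375 FPKM in the OE-MMP28 group. None of 8 leukocyte markers did so, CD3E was at 0, and their sum stayed between 1.05 and 1.31 FPKM in all libraries. The sum of 6 fibroblast markers was 33.9 to 40.9 FPKM in the Vector group and 39.3 to 57.0 FPKM in the OE-MMP28 group, with LUM the marker above 1 FPKM throughout, and that of 3 endothelial markers was at most 0.293 FPKM. The part of the epithelial, fibroblast and endothelial sums in the results below was not tested, and with mitochondrial genes left out NFKB2 was still called and NFKBIA was not, at nearly the same log2 fold change (0.42 in place of 0.44, adjusted p = 0.0640).

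Of the 10 genes, NFKB2 was lower and NFKBIA higher in OE-MMP28 cells, and 8 did not pass the test. A gene was called at an adjusted p under 0.05, taken over all 15319 genes tested. By that rule 23.4% of all genes tested were called, 11.7% as higher and 11.6% as lower, so a count of 1 in each direction among 10 genes was near the background. The whole-table counts themselves depended on single libraries: without OE-MMP28 replicate 2, 985 genes were higher and 1044 lower in place of 1795 and 1784, and without Vector replicate 3, 1136 were higher. The median log2 fold change was -0.02 over the 10 genes and 0.01 over all genes tested. NFKB1, NFKB2, NFKBIA and NFKBIE had groups that did not overlap, which was the case for 38.1% of all genes tested.

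**Figure D1:**
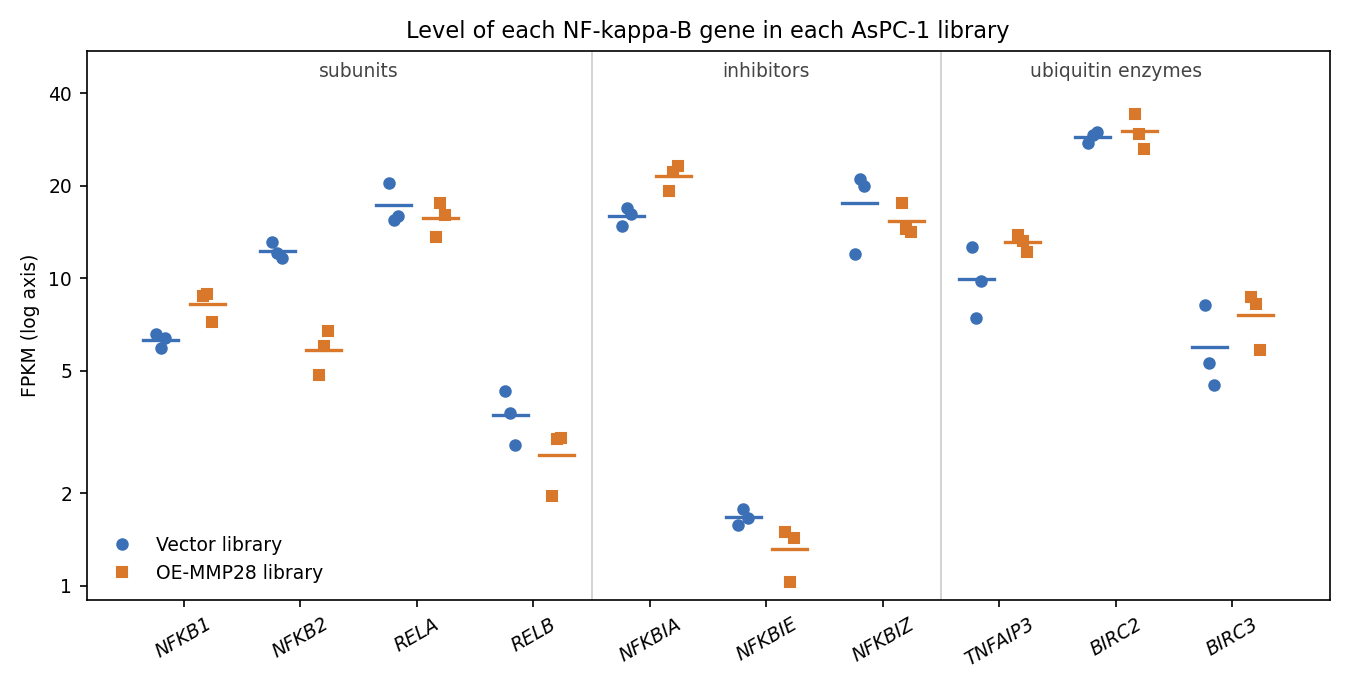
FPKM (log axis) of each of the 10 genes in each library, with circles for Vector, squares for OE-MMP28 and a bar at the mean of 3 libraries. The NFKB2 squares, at most 6.72 FPKM, all sit below the NFKB2 circles, at least 11.6 FPKM, while the NFKBIA squares all sit above the circles.

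By level, BIRC2 was the most abundant of the 10 genes, with a mean of 29.5 FPKM over the 6 libraries. It was followed by NFKBIA at 18.8 FPKM, RELA at 16.5, NFKBIZ at 16.5, TNFAIP3 at 11.5, NFKB2 at 9.07, NFKB1 at 7.30, BIRC3 at 6.79, RELB at 3.13 and NFKBIE at 1.49 FPKM. The libraries of neighbouring genes in this order overlapped in range from NFKBIA through BIRC3. The order differed between the groups: NFKB2 ranked above TNFAIP3 in the Vector group (12.3 and 9.95 FPKM) and below NFKB1 and BIRC3 in the OE-MMP28 group (5.87, 8.28 and 7.58 FPKM), and NFKBIA stood behind NFKBIZ and RELA in the Vector group (16.0, 17.6 and 17.3 FPKM). BIRC2, with a lowest value of 26.4 FPKM, lay above the highest of NFKBIA, 23.2 FPKM. RELB ranged from 1.96 to 4.29 FPKM and NFKBIE from 1.03 to 1.78 FPKM, each below every gene that precedes it.

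NFKB2 (chr10:102394110-102402529, plus strand, GRCh38) encodes the precursor of the non-canonical DNA-binding subunit. It measured 13.1, 12.1 and 11.6 FPKM in Vector replicates 1 to 3, and 4.87, 6.02 and 6.72 FPKM in OE-MMP28 replicates 1 to 3. Every OE-MMP28 library was thus below every Vector library. The mean fell from 12.3 ± 0.757 to 5.87 ± 0.937 FPKM (SD, n = 3 each), a ratio of 0.478. The log2 fold change was -1.05 (SE 0.17, 95% interval -1.40 to -0.70), with an adjusted p of 0.000169. It passed the test in all 17 alternative fits, with log2 fold changes of -1.16 to -0.58 and adjusted p-values of 3.44e-08 to 0.0228. Among the 15319 genes tested, 1178 had a larger absolute change. In RNA from whole cultures, fewer cells with a transcript and less of it per cell cannot be told apart.

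NFKB1 (chr4:102501329-102617302, plus strand) encodes the related precursor of the canonical pathway. Its levels were 6.60, 5.95 and 6.40 FPKM in the Vector libraries and 8.74, 8.91 and 7.19 FPKM in the OE-MMP28 libraries. These groups did not overlap either, with the OE-MMP28 libraries above the Vector libraries. The log2 fold change was 0.40 (SE 0.16, 95% interval 0.075 to 0.73), and the adjusted p of 0.0687 missed the threshold. It was 0.0468, with a log2 fold change of 0.49, without OE-MMP28 replicate 3, whose value was nearest to the Vector libraries. Without OE-MMP28 replicate 2 it was 0.282, with a log2 fold change of 0.33, and with the change of the neighbouring genes subtracted it was 0.294, with a log2 fold change of 0.25.

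RELA (chr11:65653596-65663094, minus strand), the main transactivating subunit, was the most abundant of the 4 subunits. It measured 20.4, 15.4 and 16.0 FPKM in the Vector libraries and 13.6, 17.5 and 16.1 FPKM in the OE-MMP28 libraries. The ranges overlapped, and the log2 fold change of -0.12 (SE 0.16, 95% interval -0.45 to 0.22) had an adjusted p of 0.636. RELB (chr19:45001430-45038198, plus strand), the partner of the NFKB2 product, had 4.29, 3.66 and 2.86 FPKM in the Vector libraries and 1.96, 2.99 and 3.02 FPKM in the OE-MMP28 libraries. Vector replicate 3 lay within the OE-MMP28 range. Its log2 fold change was -0.42 (SE 0.23, 95% interval -0.90 to 0.052, adjusted p = 0.190), an interval that holds no change as well as a loss of nearly the size measured for NFKB2.

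NFKBIA (chr14:35401511-35404749, minus strand) encodes the classical inhibitor that retains RELA in the cytoplasm. It was measured at 14.8, 17.0 and 16.2 FPKM in the Vector libraries and at 19.2, 22.2 and 23.2 FPKM in the OE-MMP28 libraries. All OE-MMP28 libraries exceeded all Vector libraries. The mean rose from 16.0 ± 1.11 to 21.6 ± 2.06 FPKM (SD, n = 3 each), a ratio of 1.35, with a log2 fold change of 0.44 (SE 0.16, 95% interval 0.12 to 0.77) and an adjusted p of 0.0468. This call was a narrow one and was kept in 3 of 17 alternative fits. With 1 library left out, the adjusted p was 0.186 without OE-MMP28 replicate 2, 0.128 without OE-MMP28 replicate 3, and 0.123, 0.0545 and 0.135 without Vector replicates 1, 2 and 3, at log2 fold changes of 0.38 to 0.51 over all 6 such fits. With the replicate number as a block it was 0.0600. The log2 fold change reversed to -0.12 (adjusted p = 0.674) once the change of the neighbouring genes was subtracted.

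NFKBIE (chr6:44258166-44265788, minus strand), a further cytoplasmic inhibitor, was the least abundant gene, at 1.57, 1.78 and 1.66 FPKM in the Vector libraries and 1.49, 1.03 and 1.43 FPKM in the OE-MMP28 libraries. The groups did not overlap, yet the log2 fold change of -0.33 (SE 0.27, 95% interval -0.89 to 0.23, adjusted p = 0.407) rested on only 42 to 63 counts per library. NFKBIZ (chr3:101827991-101861022, plus strand) encodes a nuclear member of the inhibitor family that also activates some targets. Its Vector libraries, at 12.0, 21.0 and 19.9 FPKM, enclosed the OE-MMP28 libraries, at 17.6, 14.4 and 14.1 FPKM. The log2 fold change was -0.19 (SE 0.18, adjusted p = 0.497).

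TNFAIP3 (chr6:137867188-137883312, plus strand) encodes a ubiquitin-editing enzyme that ends signaling below the TNF receptor. Its levels were 12.6, 7.44 and 9.81 FPKM in the Vector libraries and 13.9, 13.2 and 12.2 FPKM in the OE-MMP28 libraries. Vector replicate 1 lay within the OE-MMP28 range and the other 2 below it. The log2 fold change was 0.41 (SE 0.18, 95% interval 0.039 to 0.77, adjusted p = 0.101). The value was 0.61 (adjusted p = 0.0162) without Vector replicate 1. Without Vector replicate 2, the lowest of its group, it was 0.23 (adjusted p = 0.382).

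BIRC2 (chr11:102347211-102378670, plus strand) and BIRC3 (chr11:102317450-102339403, plus strand) encode ubiquitin ligases that, among other roles, keep the MAP3K14 kinase at a low level. They are neighbours, with 7808 bases from the end of BIRC3 to the start of BIRC2. BIRC2 had 27.5, 29.2 and 29.8 FPKM in the Vector libraries and 34.3, 29.6 and 26.4 FPKM in the OE-MMP28 libraries, with overlapping groups and a log2 fold change of 0.07 (SE 0.15, adjusted p = 0.769). BIRC3 was at 8.20, 5.29 and 4.49 FPKM in the Vector libraries and at 8.67, 8.25 and 5.83 FPKM in the OE-MMP28 libraries. As for TNFAIP3, Vector replicate 1 was the highest of its group and reached into the OE-MMP28 range. Its log2 fold change was 0.35 (SE 0.20, 95% interval -0.072 to 0.77, adjusted p = 0.225), and 0.64 with an adjusted p of 0.0166 without Vector replicate 1. Without Vector replicate 3, the lowest of its group, it was 0.18 (adjusted p = 0.641). The ratio of BIRC3 to BIRC2 was 0.210 ± 0.0781 in the Vector and 0.251 ± 0.0291 in the OE-MMP28 group (SD, n = 3 each, exact permutation p = 0.5, and 0.5 after adjustment over 11 subunit and pair quantities).

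**Figure D2:**
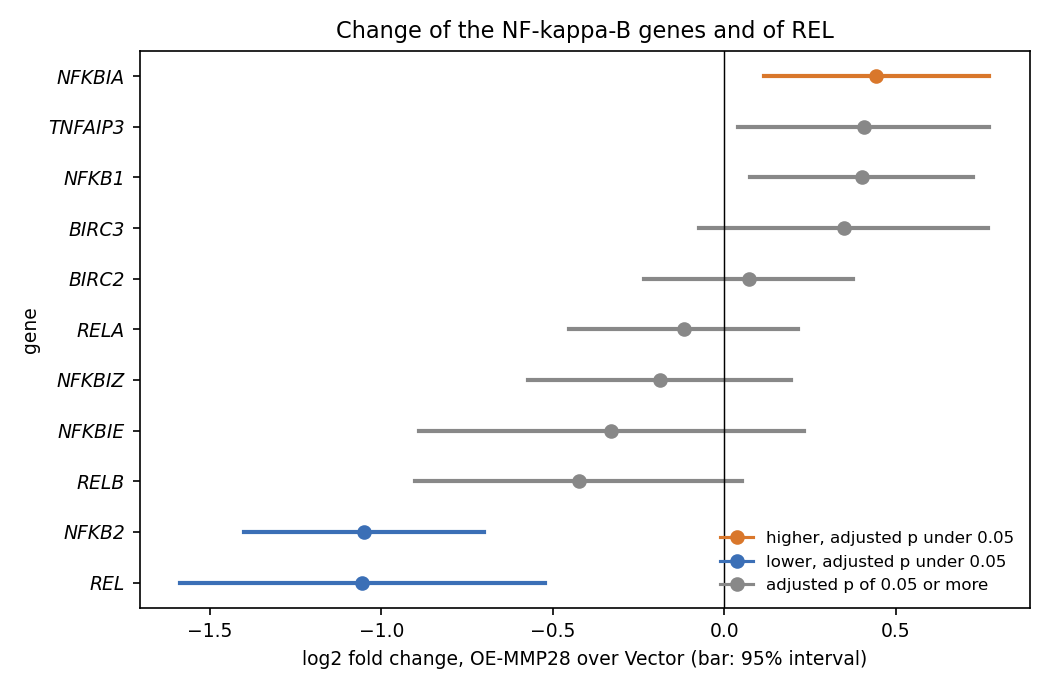
Log2 fold change of OE-MMP28 over Vector (horizontal axis) for the 10 genes and REL, ordered by value, with 95% intervals as bars and colors for the result of the test. NFKB2 and REL stand apart near -1.05, NFKBIA alone is called higher at 0.44, and the intervals of RELB, NFKBIE, NFKBIZ, RELA, BIRC2 and BIRC3 include 0.

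The make-up of the subunit transcripts was then examined, with REL, the fifth subunit gene, included. REL was scarce, at 0.938 ± 0.0606 FPKM in the Vector group and 0.449 ± 0.178 FPKM in the OE-MMP28 group (SD, n = 3 each), and fell with a log2 fold change of -1.06 (SE 0.26, adjusted p = 0.00534). It passed in 14 of 17 alternatives and missed the threshold with limma on FPKM (adjusted p of 0.111 and 0.133) and with the neighbours subtracted (0.112). A gene on its strand shares 43.3% of its exon length and had 0 counts. How reads in the shared part were counted is not known, so the level of REL may be understated. In the Vector libraries, NFKB2 and RELB together held 38.4, 41.4 and 38.3% of the summed FPKM of the 5 subunits. In the OE-MMP28 libraries they held 22.9, 25.0 and 29.3%. The share of the non-canonical pair was thus lower in every OE-MMP28 library, with means of 39.4 ± 1.73% and 25.7 ± 3.22% (SD, n = 3 each) and a difference of -13.6 percentage points. An exact two-sided permutation test gave p = 0.1, the smallest possible, and 0.138 after adjustment over the 11 quantities.

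That difference lay in NFKB2, which held 30.5 ± 1.45% of the subunit sum in the Vector group and 17.8 ± 2.12% in the OE-MMP28 group (SD, n = 3 each), while RELB held 8.88 and 7.99% (exact permutation p = 0.5). NFKB1 took 15.7 ± 1.20% and 25.2 ± 3.92%, and RELA 42.6 ± 2.25% and 47.6 ± 1.57% (SD, n = 3 each). The order of the precursors was reversed between the lines. NFKB2 stood at 1.99, 2.04 and 1.81 times NFKB1 in the Vector libraries, and at 0.557, 0.676 and 0.935 times NFKB1 in the OE-MMP28 libraries. Every Vector library thus had more NFKB2 than NFKB1 per length, and every OE-MMP28 library less. The summed level of the 5 subunits was 40.4 ± 4.25 FPKM in the Vector group and 33.0 ± 3.15 FPKM in the OE-MMP28 group, and NFKBIA per RELA was 0.946 ± 0.196 and 1.37 ± 0.0933 (SD, n = 3 each). For the shares of NFKB1, NFKB2 and RELA, both of these quantities and the ratio of NFKB2 to NFKB1, the exact permutation p was 0.1, the lowest that 3 against 3 libraries allow.

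**Figure D3:**
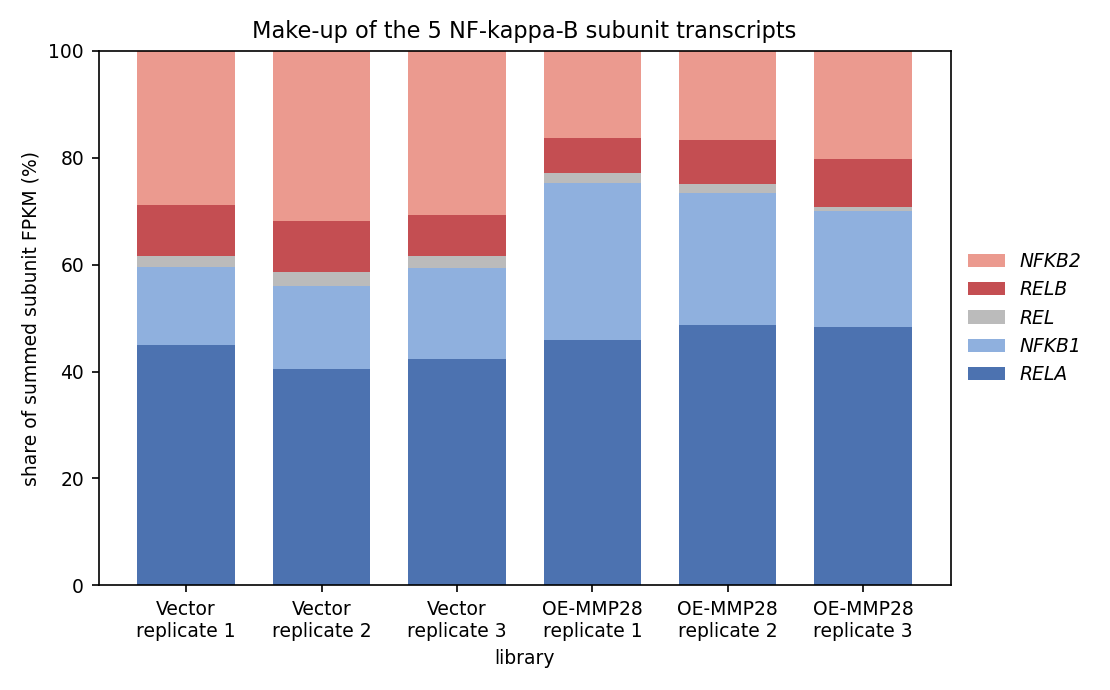
Share of each of the 5 subunit genes in their summed FPKM (vertical axis, percent), 1 bar per library. NFKB2 and RELB, the upper 2 parts, together fill 38.3 to 41.4% of the Vector bars and 22.9 to 29.3% of the OE-MMP28 bars.

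Genes near the 10 loci were compared next, to place each change beside that of its surroundings. Here the start of a gene means its lowest coordinate, whatever its strand. Of 89 tested genes whose start lay within 5 Mb of the NFKB2 start, 34 were lower and 2 higher, with a median log2 fold change of -0.47, and 3.85% of all genes tested had a lower median around them. NFKB2 fell by more than the median of its surroundings: it lay at -0.58 relative to that median, and with the median as an offset it was still called lower (adjusted p = 0.0228). That fit takes the offset as free of error. Some of the neighbours fell by more than NFKB2, such as LOXL4 at -2.61 and GOLGA7B at -2.05. By distance between starts, the 5 nearest tested neighbours of NFKB2 were PSD, FBXL15, CUEDC2, RPARP-AS1 and MFSD13A. PSD was lower at a log2 fold change of -1.78 (adjusted p = 0.0337), from a mean of only 0.207 FPKM in the Vector group. RPARP-AS1 and MFSD13A were lower by about as much as NFKB2, at -1.04 (adjusted p = 0.00133) and -0.97 (adjusted p = 0.00731), while FBXL15 and CUEDC2, at -0.60 and -0.49, did not pass the test. ACTR1A, next by distance, was at -0.31 (adjusted p = 0.164). All of these lie on the same side of NFKB2. On the other side, the nearest tested genes GBF1 and NOLC1 were at -0.33 and -0.32 (adjusted p of 0.124 and 0.132). NFKBIA lay in a region of the opposite direction, where 17 of 39 neighbours were higher and 1 was lower, with a median of 0.56, exceeded around 3.04% of all genes tested. The NFKBIA change was 0.12 below that median. By distance between starts, the 4 nearest tested neighbours of NFKBIA were PSMA6, RALGAPA1, KIAA0391 and AL049776.1. RALGAPA1 was higher with a log2 fold change of 0.74 (adjusted p = 0.00470), and PSMA6, KIAA0391 and AL049776.1 were at 0.69, 0.37 and -0.39 without passing the test.

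Around BIRC2, 10 of 27 neighbours were higher and 0 lower, with a median of 0.49, exceeded around 4.81% of all genes tested. BIRC2 itself was at 0.07 and BIRC3 at 0.35, both below it, and with the offset the log2 fold change of BIRC2 became -0.42 (adjusted p = 0.0580) and that of BIRC3 -0.14 (adjusted p = 0.704). RELA also lay among genes that were more often higher than lower, 54 against 8 of 245, with a median of 0.27. The medians around NFKB1, RELB, NFKBIE, NFKBIZ and TNFAIP3 ran from 0.03 to 0.15.

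**Figure D4:**
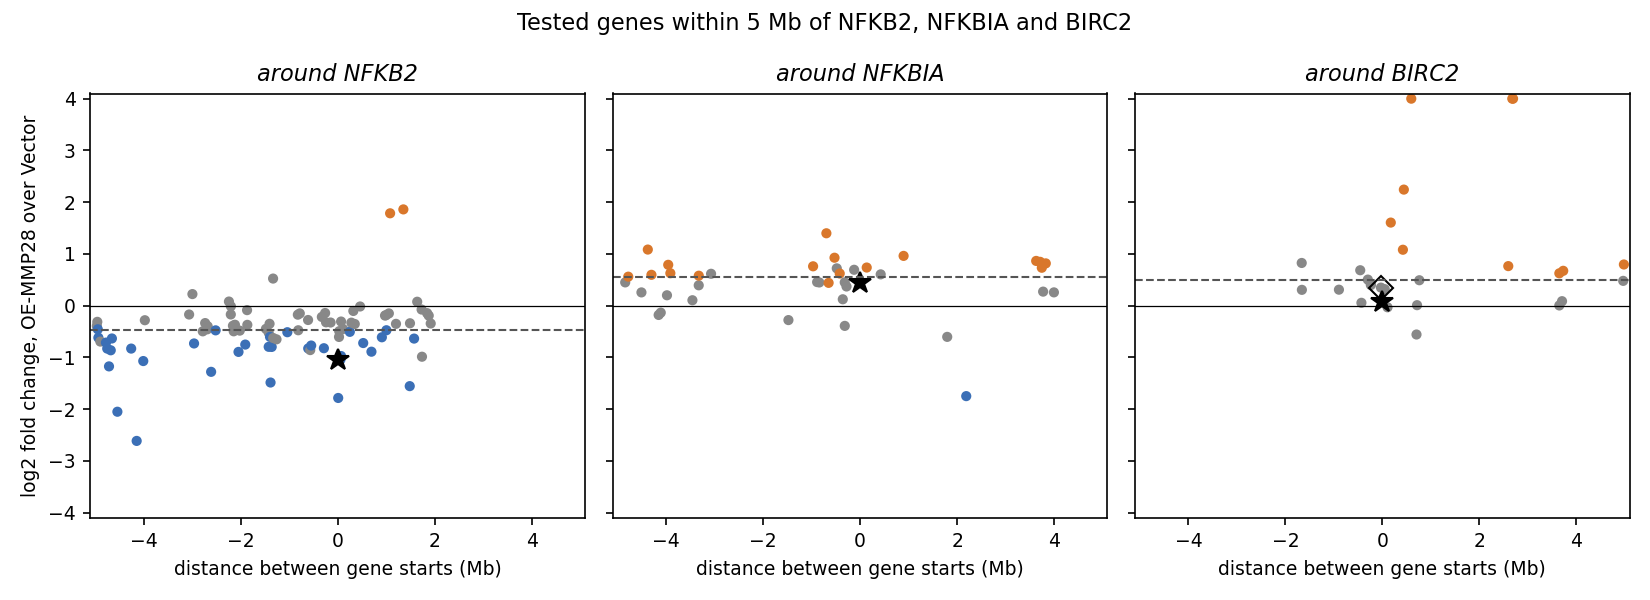
Log2 fold change of tested genes (vertical axis) against the distance of their start from that of NFKB2, NFKBIA and BIRC2 (horizontal axis, Mb), with blue for lower, orange for higher and grey for not called, a dashed line at the neighbours' median, a star for the gene itself and an open diamond for BIRC3. The NFKB2 star lies below its dashed line at -0.47, the NFKBIA star near its line at 0.56, and 3 genes beyond the axis limit of 4 are drawn at the edge. A start is the lowest coordinate of a gene, whatever its strand.

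The rest of the pathway was taken as 7 lists by role, with 102 genes in all. Of these, 77 passed the filter on low counts, 10 were higher, 12 were lower and 55 did not pass the test, with a median log2 fold change of -0.06. The share called was 28.6%, against 23.4% of all genes tested. It includes IL1A and IL1B, both called lower, which were tested only through the Vector group. The counts moved with single libraries, to 6 higher without OE-MMP28 replicate 2, and to 6 and 7 lower without OE-MMP28 replicate 3 and Vector replicate 3. With limma on FPKM, 7 were higher and 5 lower, and with the neighbours subtracted 6 and 8. Of the 7 other subunits and inhibitors, REL was the 1 gene called, or 14.3% against 23.4% of all genes tested. The nuclear cofactor BCL3 was at a log2 fold change of 0.26 (adjusted p = 0.330). Among 11 kinases, 1 was called, or 9.09% against 23.4% of all genes tested. None of the genes of the core complex passed the test. CHUK, a catalytic subunit, was at -0.17 (adjusted p = 0.582), IKBKB, the other, at -0.32 (adjusted p = 0.160), and the scaffold IKBKG at -0.12 (adjusted p = 0.759). MAP3K14, the non-canonical kinase that acts on the NFKB2 product, measured 1.46, 1.39 and 1.24 FPKM in the Vector libraries and 1.32, 1.73 and 1.43 FPKM in the OE-MMP28 libraries. Those groups overlapped, with a log2 fold change of 0.14 (SE 0.21, adjusted p = 0.672), and 12.3% of its exon length is shared with its antisense gene. MAP3K8, a kinase held by the NFKB1 precursor, was the kinase called: it fell from 9.27 ± 1.82 to 4.92 ± 0.930 FPKM (SD, n = 3 each), with a log2 fold change of -0.90 (SE 0.19, adjusted p = 0.00192), and was not called with the neighbours subtracted (adjusted p = 0.251).

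Receptors gave the largest rise of any pathway gene. Of 14 receptor genes, 10 were tested, 3 were higher and 1 was lower, with a median log2 fold change of 0.31. These were 40% of the receptors tested, against 23.4% of all genes tested. TNFRSF12A, the receptor of TWEAK and an activator of the non-canonical pathway, was at 52.1, 30.2 and 32.6 FPKM in the Vector libraries and at 76.1, 126 and 156 FPKM in the OE-MMP28 libraries. All OE-MMP28 libraries were above the highest Vector library, with a log2 fold change of 1.66 (SE 0.23, adjusted p = 3.74e-05). TNFRSF1B, the second TNF receptor, rose from 9.71 ± 2.69 to 19.5 ± 1.77 FPKM (SD, n = 3 each), with a log2 fold change of 1.02 (SE 0.18, adjusted p = 0.000522). Both were called in all 17 alternatives. IL1RAP, the shared chain of interleukin-1 family receptors, was higher by 0.71 (adjusted p = 0.0163). This call was lost without OE-MMP28 replicates 1 and 2 and Vector replicate 3 (adjusted p of 0.0928, 0.0603 and 0.0963). It was also lost with limma on FPKM (0.133 and 0.140) and, at 0.31, with the neighbours subtracted (0.337). NOD1, a sensor of bacterial cell walls, was lower by a log2 fold change of -0.58 (adjusted p = 0.0245). It was not called without OE-MMP28 replicates 1 and 3 and Vector replicate 3 (0.0541, 0.0611 and 0.116), nor with limma on FPKM (0.0570 and 0.0616).

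Ligands were scarce, as 8 of the 12 listed did not pass the filter. TNF and LTA had at most 1 count in any library, and TNFSF11, TNFSF14, CD40LG and IL33 were at 0. All 4 tested ligands were called, against 23.4% of all genes tested, but IL1A and IL1B rested on few counts. IL18, an interleukin made by epithelia, rose from 99.0 ± 22.0 to 148 ± 8.43 FPKM (SD, n = 3 each), with a log2 fold change of 0.59 (SE 0.16, adjusted p = 0.0128). It was not called without Vector replicate 1 (adjusted p = 0.0626), with the neighbours subtracted (0.757) or with limma on FPKM (0.0612 and 0.0617). TNFSF12, which encodes TWEAK, the ligand of TNFRSF12A, fell from 1.53 ± 0.226 to 0.662 ± 0.139 FPKM (SD, n = 3 each), with a log2 fold change of -1.20 (adjusted p = 0.0151), and was not called without OE-MMP28 replicate 3 (0.0677) or Vector replicate 3 (0.0731). A share of 29.4% of its exon length also belongs to a read-through gene, TNFSF12-TNFSF13, which had 0 counts. How reads in that part were counted is not known. IL1A and IL1B, the interleukin-1 ligands, lay under the level set for naming and were named after their values were seen. IL1A had 23, 20 and 17 counts in the Vector libraries and 7, 4 and 5 in the OE-MMP28 libraries (log2 fold change -2.03, adjusted p = 0.00441). IL1B had 18, 55 and 22 counts in the Vector libraries and 5, 9 and 5 in the OE-MMP28 libraries (log2 fold change -2.47, adjusted p = 0.00211). Both groups of libraries were apart for each gene. Every OE-MMP28 count of IL1A and IL1B was under the filter's minimum of 10. Both genes were thus tested only through the Vector group, so their separation adds no support.

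All 14 adaptors were tested, with 1 higher and 2 lower, or 21.4% against 23.4% of all genes tested. Their median log2 fold change was -0.24. TRAF3, which holds MAP3K14 for degradation together with the BIRC2 and BIRC3 products, rose from 4.07 ± 0.342 to 6.11 ± 0.668 FPKM (SD, n = 3 each), with a log2 fold change of 0.60 (SE 0.16, adjusted p = 0.0101). Its call was lost without OE-MMP28 replicate 2 (0.0998) and Vector replicate 3 (0.0731), and with the neighbours subtracted (0.785). RIPK2, the kinase partner of NOD1, was lower by a log2 fold change of -0.63 (adjusted p = 0.0156), a call lost without OE-MMP28 replicates 2 and 3 and Vector replicate 3 (0.0892, 0.0526 and 0.0606) and, at -0.32, with the neighbours subtracted (0.244). TRAF5 was lower by a log2 fold change of -0.50 (adjusted p = 0.0259). This call was lost without OE-MMP28 replicates 2 and 3 (0.152 and 0.0641) and Vector replicates 2 and 3 (0.0578 and 0.150). Limma on FPKM did not call TRAF5 either (0.0727 and 0.0709). Among 12 other ubiquitin enzymes and their partners, 1 was higher and 1 lower, or 16.7% against 23.4% of all genes tested. RNF31, the catalytic part of the linear ubiquitin ligase, was at a log2 fold change of 0.70 (adjusted p = 0.00699), lost without OE-MMP28 replicate 2 (0.0560) and with the neighbours subtracted (0.709). It shares 34.8% of its exon length with another gene on its strand, which had 53 counts. A further 4.34% is shared with PSME2 on the other strand, which had 10335 counts and rose by 0.87 (adjusted p = 0.000351). Whether PSME2 reads entered the RNF31 count was not tested. TNIP1, a partner of the TNFAIP3 enzyme, was at -0.64 (adjusted p = 0.0125). Its call was lost without OE-MMP28 replicate 3 (0.0520), at -0.36 without Vector replicate 2 (0.110), and with limma on FPKM (0.0839 and 0.0846). CYLD, the deubiquitinase, was at -0.32 (adjusted p = 0.214).

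The list of other target genes held 32 genes, of which 19 were tested, 4 higher and 3 lower, with a median log2 fold change of -0.12. The 7 called genes were 36.8% of those tested, against 23.4% of all genes. CCL20, a chemokine that draws CCR6-bearing cells, was at 2.26, 3.90 and 2.85 FPKM in the Vector libraries and at 6.82, 4.79 and 6.34 FPKM in the OE-MMP28 libraries. Its groups did not overlap, and it rose by a log2 fold change of 1.01 (SE 0.25, adjusted p = 0.00572), called in all 17 alternatives. TNFAIP2 rose from 21.8 ± 5.89 to 39.1 ± 2.99 FPKM (SD, n = 3 each, log2 fold change 0.86, adjusted p = 0.00139), though not with the neighbours subtracted (0.197). BCL2L1, which encodes a survival protein, rose from 35.5 ± 1.92 to 55.4 ± 5.85 FPKM (SD, n = 3 each, log2 fold change 0.66, adjusted p = 0.00318) in all 17 alternatives, although 43.0% of its exon length is shared with an antisense gene. CXCL1, a neutrophil chemokine, was lower by a log2 fold change of -1.26 (adjusted p = 0.0414), but its groups overlapped. That call was lost in 9 of 17 alternatives, among them without OE-MMP28 replicates 1, 2 and 3 (0.0997, 0.0879 and 0.131), without Vector replicate 3 (0.0672), and without Vector replicate 2, at -0.71 (0.307). The related chemokine CXCL8 was at -0.12 (95% interval -0.85 to 0.62, adjusted p = 0.850). It had only 27 to 49 counts per library, and the interval holds a rise as well as a fall.

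The remaining called targets were named after their values were seen. CCND1, a cyclin, was higher by a log2 fold change of 0.52 (adjusted p = 0.0207). This call was lost without OE-MMP28 replicates 1 and 2 (0.0701 and 0.0879) and Vector replicates 2 and 3 (0.0723 and 0.105). It was also lost with limma on FPKM (0.0742 and 0.0745) and, at 0.20, with the neighbours subtracted (0.433). CFLAR, an inhibitor of death receptor signaling, fell from 12.2 ± 0.595 to 8.29 ± 0.371 FPKM (SD, n = 3 each, log2 fold change -0.55, adjusted p = 0.00689), though not with the neighbours subtracted (0.402). SOD2, the mitochondrial superoxide dismutase, was at -0.57 (adjusted p = 0.00939, and 0.0661 without OE-MMP28 replicate 2). A second gene of the table with that symbol had 11 counts over all libraries. Of the 19 target genes tested, 12 did not pass the test.

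**Figure D5:**
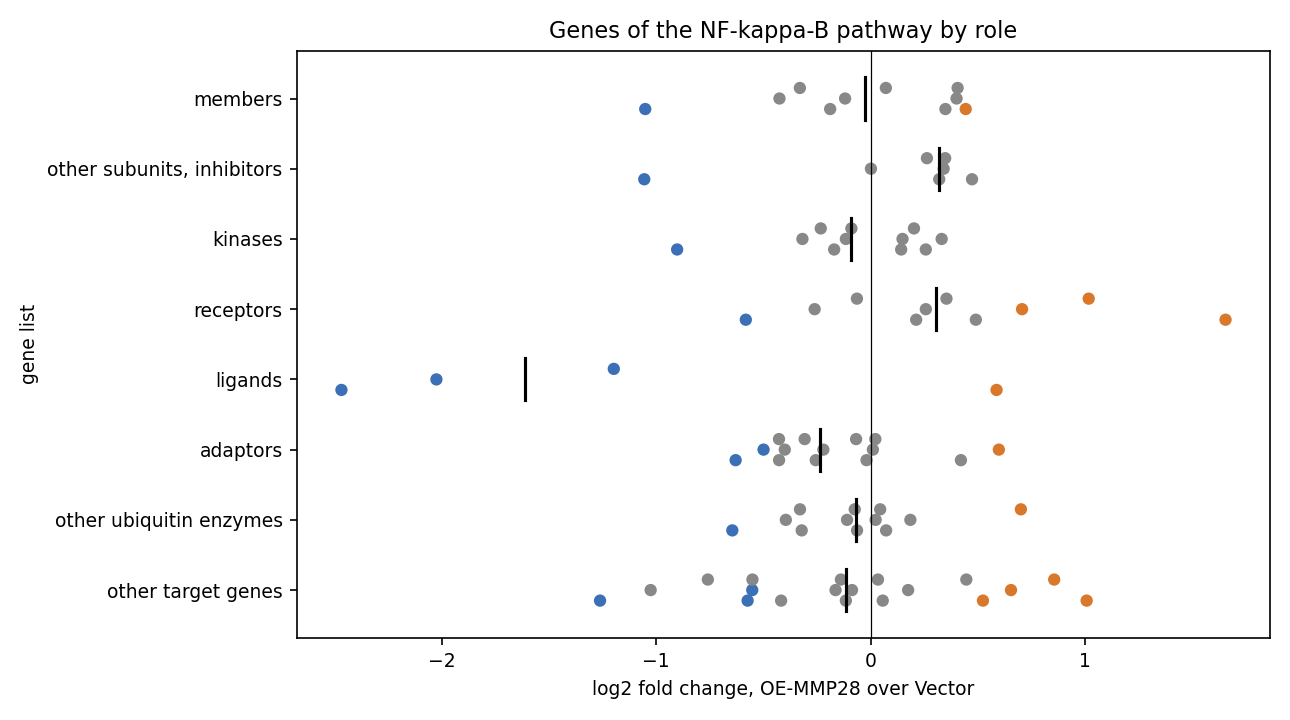
Log2 fold change (horizontal axis) of each tested gene of the 10 studied genes and of the 7 pathway lists, 1 row per list, with orange for higher, blue for lower, grey for not called and a vertical bar at the median. The receptors reach furthest up, to 1.66 for TNFRSF12A, and the ligands furthest down, to -2.47 for IL1B. IL1B had fewer than 10 counts in every OE-MMP28 library. Most other genes lie near 0.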

How the data were processed

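RNA of 3 Vector and 3 OE-MMP28 libraries of AsPC-1 cells was sequenced, with groups taken from the sample titles (NC and OE) and named after the study's methods. The authors deposited read counts per gene, as whole numbers, and FPKM values made from them. The submitters' processing notes name HISAT2 2.0.5 and featureCounts 1.5.0-p3. Whether counting used the strand is not given in the sources used here. Gene identifiers and coordinates of all 58735 genes equalled GENCODE release 29 on GRCh38. Columns with the authors' own log2 fold changes and p-values were not used.

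Counts were fitted with edgeR 4.0.16 in R 4.3.3 by the quasi-likelihood test, with the group as the only term, filterByExpr (minimum count 10, minimum total 15), TMM scaling and Benjamini-Hochberg adjustment over 15319 genes. The study's methods name limma, which was run as an alternative (limma 3.58.1), as was DESeq2 1.42.0. FPKM served for levels, ratios and shares, and the latter were compared by exact two-sided permutation tests. Intervals and the floor of 3 counts cover the spread between libraries and counting error only. Scripts were tested on simulated data.

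The genes, the lists and the tests were chosen with earlier results of these data known. Named beside the 10 genes were MMP28, REL, CHUK, IKBKB, IKBKG and MAP3K14, and from each list at most 4 called genes with the largest change and at least 1 FPKM in a group. BCL3, CYLD, CXCL8 and the nearest neighbours were added for context, after their values were seen. The 5 genes whose pattern is most like NFKB2 were taken by Pearson r. Alternatives were other filters, scalings, tests and pseudocounts, the replicate block, counts without mitochondrial genes, an offset for the median change of the neighbours within 5 Mb, and each library left out.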

Additional observations from a re-analysis of the deposited data

How the results depend on the processing

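NFKB2 kept its direction and its call in all 17 alternatives, and the differences in the share of NFKB2 and RELB ran from -15.4 to -12.2 percentage points with 1 library left out, -11.9 with TMM-scaled CPM and -14.2 without REL in the sum. The count of 1 studied gene called higher, NFKBIA, became 0 with RLE size factors, upper-quartile scaling, at least 1 CPM in at least 3 libraries, no filter, limma on log2(FPKM + 0.1) or log2(FPKM + 1), the replicate block, the local-median offset, no mitochondrial genes, or the further demand of an absolute log2 fold change over 1. With 1 library left out the count ran from 0 to 2. The genes called higher were then NFKBIA without OE-MMP28 replicate 1, NFKB1 without OE-MMP28 replicate 3, and TNFAIP3 and BIRC3 without Vector replicate 1. Over all genes, 1795 higher and 1784 lower became 1000 and 970 with limma on log2(FPKM + 0.1), 1009 and 965 on log2(FPKM + 1), 469 and 662 with the added fold change, 985 to 1916 and 1044 to 1949 with 1 library left out, and 1135 higher with the offset. Log2 fold changes that reversed were NFKBIA at -0.12, BIRC2 at -0.42, BIRC3 at -0.14, CHUK at 0.30 and IKBKB at 0.029 with the offset, and, with 1 library left out, RELA from -0.22 to 0.017 (above 0 without Vector replicate 1), BIRC2 from -0.041 to 0.15 (below 0 without OE-MMP28 replicate 1) and IKBKG from -0.30 to 0.23 (above 0 without Vector replicate 2). None of these reversed values passed the test, and beyond the offset's own construction the cause was not tested. Deviations of libraries with the same replicate number correlated at 0.05, 0.02 and -0.17 across genes, so the numbers were not taken to pair the libraries, and no library correlated best with its own number. With the replicate block 3685 genes were called in place of 3579, and NFKBIA had an adjusted p of 0.0600. Among the 10 genes, NFKBIE had the fewest counts, at 42 to 63 per library.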

Other observations

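The 5 tested genes whose log2 CPM followed NFKB2 most closely over the 6 libraries were SLC29A3, a nucleoside transporter (Pearson r = 0.997), AC016747.3 (0.997), PREB, a factor of protein export from the endoplasmic reticulum (0.996), AL691432.1 (0.995) and SLC22A20P (0.994). In total 716 genes had an r above 0.9, and since the 6 libraries fall into 2 groups these values describe a shared difference between the groups. No REL-family gene was among the 5.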
